A study of Mus musculus with 38 samples.

Results

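Of the 116042 H3K4me1 domains listed for cultured mouse epidermal stem cells (EpdSCs) that expressed wild-type (WT) SOX9, 13197 were found in no other list of the mark. These WT-only domains, 11.4% of the list, were chosen by measured values: a domain qualified when it shared no base with any domain of the cells without doxycycline (DOX), of the cells with ΔHMG-SOX9 or of the cells with ΔTA-SOX9, nor with any domain of the 5 lists from skin. They covered 10020 kb. All 14 lists of the series together hold 1006702 intervals.

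The culture experiment used *Krt14-rtTA* EpdSCs carrying *TRE*-driven, MYC-tagged SOX9 variants, labelled K14rtTA; TRE-myc-Sox9varients, in which DOX switches the transgene on through an activator made from the epidermal *Krt14* promoter. By the study's methods the variants entered by lentivirus and puromycin selection, so that every culture, including the one without DOX, had been transduced and selected. ΔHMG-SOX9 lacks the DNA-binding HMG domain and ΔTA-SOX9 lacks the transactivation domain. The skin lists came from EpdSCs of male *Krt14-rtTA;TRE-Sox9* mice, sorted before induction (D0) and after 1, 2, 6 and 12 weeks of DOX started at postnatal day 21 (W1, W2, W6 and W12), with grafts on immunocompromised mice as the source of W12 cells. H3K4me1 was profiled by MINT-ChIP, an immunoprecipitation of chromatin that was barcoded and then pooled across samples, after a high and a low micrococcal nuclease digest. Each culture condition had 1 barcode per digest and its digests were pooled into 1 list. The barcode keys name 6 conditions per digest, and cells with ΔTA-SOX9 or ΔHMG-SOX9 kept without DOX were not analysed here, so that the list without DOX is that of the WT SOX9 line alone. There is thus no spread between replicates for any value here, no p-value is given between lists, and intervals cover counting error only. Read depth of the culture lists is unknown. All 4 culture lists had domains over the keratinocyte genes *Krt5*, *Krt14*, *Trp63* and *Itga6*.

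H3K4me1 marks enhancers that are primed or active, and H3K27ac marks those that are active. SOX9 is a transcription factor of hair follicle stem cells and of cartilage, neural crest and other lineages, and is absent from normal EpdSCs. It acts as a pioneer factor, that is, one that can bind its motif in closed chromatin. SOX proteins bind short AT-rich sequences with a core of ACAA through the HMG domain, and SOX9 is known to bind pairs of such sites that face each other as a dimer. ΔHMG-SOX9 therefore serves as a control without DNA binding, and ΔTA-SOX9 as a control without the domain through which SOX9 contacts its co-factors.

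The sequences at the middle of WT-only domains are shown first because sequence was not used to choose them. The next windows are the central 300 bases of the 3 members of highest score that hold the SOX pattern ACAATG, apart from those on 1 chromosome whose sequence is not printed, and of 2 members in which the longer pattern AACAAT faces its reverse complement ATTGTT. Each is named after the gene of its nearest start site and is given on the plus strand of GRCm38, with the matched letters, and for a pair also the bases between its sites, in capitals. The Gm49295 window is chr14:72882789-72883088, the Slc16a7 window chr10:125198184-125198483, the Il15 window chr8:82328342-82328641, the Gm23437 window chr14:106802839-106803138 and the Gm2830 window chr13:54498465-54498764. All 5 lie between genes. The Slc16a7 window is a simple repeat, with 72.7% of its bases masked.
Gm49295: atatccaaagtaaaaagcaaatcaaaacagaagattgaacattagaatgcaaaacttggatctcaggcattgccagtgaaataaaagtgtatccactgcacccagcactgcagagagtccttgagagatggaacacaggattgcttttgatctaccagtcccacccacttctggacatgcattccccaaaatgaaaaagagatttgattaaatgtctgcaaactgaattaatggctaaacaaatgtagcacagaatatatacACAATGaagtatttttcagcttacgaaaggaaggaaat
Slc16a7: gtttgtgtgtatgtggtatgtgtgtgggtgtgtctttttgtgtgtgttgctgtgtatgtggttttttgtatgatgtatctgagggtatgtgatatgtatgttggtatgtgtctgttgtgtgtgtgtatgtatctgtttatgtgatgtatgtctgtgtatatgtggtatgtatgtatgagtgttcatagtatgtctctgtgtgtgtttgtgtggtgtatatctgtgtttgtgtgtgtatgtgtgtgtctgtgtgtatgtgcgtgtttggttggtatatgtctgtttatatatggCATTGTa
Il15: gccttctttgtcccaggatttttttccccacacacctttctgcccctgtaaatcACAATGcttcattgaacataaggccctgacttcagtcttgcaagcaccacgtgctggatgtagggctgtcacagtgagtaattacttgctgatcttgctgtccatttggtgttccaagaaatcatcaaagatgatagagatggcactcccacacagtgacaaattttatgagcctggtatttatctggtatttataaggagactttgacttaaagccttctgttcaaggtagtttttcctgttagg
Gm23437: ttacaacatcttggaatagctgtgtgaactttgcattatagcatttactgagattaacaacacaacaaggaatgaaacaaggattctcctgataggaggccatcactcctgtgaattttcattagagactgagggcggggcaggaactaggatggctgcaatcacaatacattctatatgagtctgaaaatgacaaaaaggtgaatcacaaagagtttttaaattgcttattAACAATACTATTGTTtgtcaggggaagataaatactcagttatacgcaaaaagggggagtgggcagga
Gm2830: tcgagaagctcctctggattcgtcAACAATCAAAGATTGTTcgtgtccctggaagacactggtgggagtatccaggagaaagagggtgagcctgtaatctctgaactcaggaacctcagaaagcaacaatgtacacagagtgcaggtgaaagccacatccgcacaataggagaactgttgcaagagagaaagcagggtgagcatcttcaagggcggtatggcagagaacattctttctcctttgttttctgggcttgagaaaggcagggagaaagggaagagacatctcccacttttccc

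Shorter stretches show the facing arrangement of SOX cores whose counts are given further on. They are members of high score in which ACAAT faces ATTGT across 5 to 7 bases outside repeats, with both sites in capitals and 20 bases of flank, again on the plus strand of GRCm38. The *Ccdc191* stretch is chr16:43920447-43920501, that of Gm20692 chr6:120516750-120516805, that of *Cep170* chr1:176784065-176784121, that of 1700063A18Rik chr1:95969333-95969389 and that of Gm16123 chr6:12348955-12349010. The one near 1700063A18Rik lies between genes and the others in introns.
Ccdc191: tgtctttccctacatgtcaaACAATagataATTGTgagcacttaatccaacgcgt
Gm20692: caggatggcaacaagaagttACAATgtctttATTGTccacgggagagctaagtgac
Cep170: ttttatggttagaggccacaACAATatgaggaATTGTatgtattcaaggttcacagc
1700063A18Rik: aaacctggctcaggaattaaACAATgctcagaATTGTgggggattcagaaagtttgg
Gm16123: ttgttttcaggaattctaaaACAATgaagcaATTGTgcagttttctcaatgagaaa

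The first question was how many domains each culture list holds that no other list has. By the same rule the ΔTA-SOX9 list had 10721 private domains of 123338 (8.69%), the ΔHMG-SOX9 list 4197 of 116326 (3.61%) and the list without DOX 3067 of 110589 (2.77%). WT SOX9 thus had the most, 1.23 times as many as ΔTA-SOX9, 3.14 times as many as ΔHMG-SOX9 and 4.30 times as many as cells without DOX. These counts are what the rule selected on and are a description. When all culture lists were cut to equal length, 12573 WT-only and 8048 ΔTA-only domains were left.

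**Figure D1:**
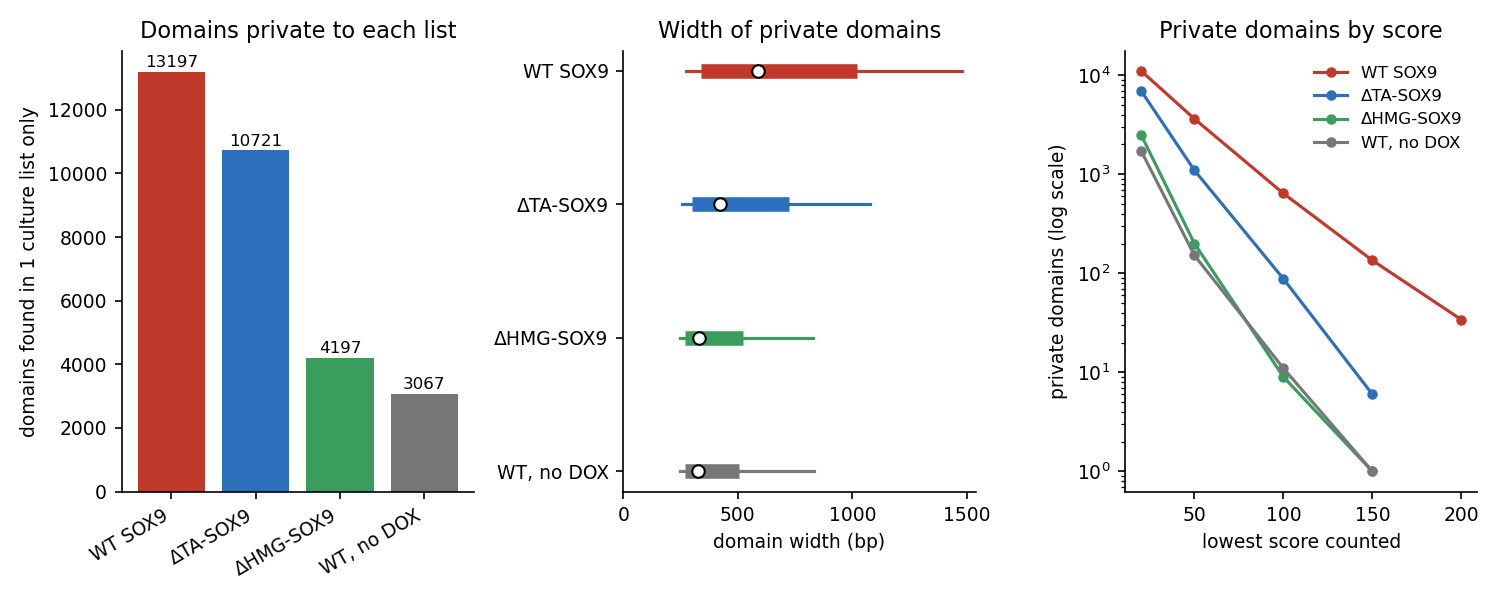
Left, bars give the number of H3K4me1 domains private to each of the 4 pooled culture lists. Middle, widths of these private domains in bp, with the median (circle), the middle 50% (thick bar) and the 10th to 90th percentiles (line). Right, how many private domains reach a given score, on a log scale, where the WT SOX9 line stays highest. At a score of 100 it has 640 of 12649 domains, against 88 of 11132 (ΔTA), 9 of 10533 (ΔHMG) and 11 of 11268 (no DOX).

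Most domains were removed by the comparison with cells without DOX. Of the 116042 domains with WT SOX9, 33788 had no overlap without DOX. ΔHMG-SOX9 removed a further 6723 and ΔTA-SOX9 3126, which left 23939 domains private among the culture lists. Of these, 10742 (44.9%, 95% CI 44.2 to 45.5) overlapped H3K4me1 in skin and were set aside. The overlap was highest with W2 (33.1%), followed by W6 (28.8%) and W1 (26.5%), and was 24.3% with D0 and 24.9% with W12. For the other lists D0 was the skin list of highest overlap, at 23.9% for ΔTA-SOX9, 32.8% for ΔHMG-SOX9 and 43.9% without DOX.

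WT-only domains were wider and of higher score than the private domains of the other lists. Their median width was 586 bp (95% CI 576 to 600, range 240 to 4217), against 423 bp for ΔTA-only, 331 bp for ΔHMG-only and 327 bp for no-DOX-only domains. Their median fold enrichment over the local background was 3.53 (3.52 to 3.55, range 1.77 to 11.6) against 3.23, 3.19 and 3.14. The caller's score had a median of 34.0 and a highest value of 353, while the private domains of the other lists reached no more than 179. The excess over the other lists grew with score. At a score of at least 100 there were 640 WT-only domains among the 12649 of the list (5.06%). The other lists had 88 ΔTA-only of 11132 (0.791%), 9 ΔHMG-only of 10533 (0.0854%) and 11 no-DOX-only of 11268 (0.0976%). At 200 or more there were 34 WT-only of 1001 (3.40%) and none private among 828, 708 and 845. The WT-only share itself fell with score, from 10.5% at 20 or more. Since the rule selects domains that are missing elsewhere, these values describe the members and test nothing.

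Within the WT SOX9 list the members were still weighted to the weak end. They made up 566 of the 11605 domains (4.88%) in the top 10% of the list by score and 2323 of 11604 in the bottom 10%, where ΔTA-only domains went from 0.786% to 24.9% of their own list. The 102845 other WT SOX9 domains were wider (median 983 bp) and of higher score (46.0), with nearly the same fold (3.51). Members mostly stood clear of other domains, as did the private domains of the other lists under the same rule. For members the nearest domain of any of the other 8 lists was at a median of 4279 bp. One lay within 200 bp of 186 members (1.41%), and 3524 (26.7%) had none within 10000 bp. For ΔTA-only domains the median was 3957 bp, with 1.86% within 200 bp and 23.8% beyond 10000 bp. Medians were 3020 bp for ΔHMG-only and 2945 bp for no-DOX-only domains. At the edge of the rule, the 62 members with another list's domain within 50 bp had medians of 469 bp, 3.13-fold and a score of 25, and the 84 domains that missed it by an overlap of 1 to 50 bp had 575 bp, 2.94-fold and 20.5.

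Apart from a domain in *Zfpm2*, the 10 top-scored members lay over 2500 bp from the nearest start site. The highest score, 353, belonged to a 413-bp domain between genes at chr18:17182994-17183406, 52047 bp from the nearest start site, with 10.3-fold enrichment and a q-value of 4.61e-36. It ranked 38 in the whole WT SOX9 list and was 372993 bp from any H3K4me1 domain of skin, but 2520 bp from the nearest domain of the other culture lists. The next, with a score of 308 and 11.3-fold enrichment, lay in an intron of *Dcaf6*, a ubiquitin ligase substrate receptor, at chr1:165396530-165397020. A domain of 809 bp near Gm49295, whose sequence is given above, scored 301.

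Members of next highest score lay in or near genes of several kinds. The largest fold of all members, 11.6, belonged to a domain of score 285 inside *Zfpm2* (a co-factor of GATA proteins) at chr15:40908601-40909030. Its midpoint lay in an annotated exon, whose gene was not determined. The nearest start site, 1036 bp away, was that of Gm49525. A domain of score 277 and 11.4-fold enrichment lay in an intron of *Cntnap2*, a neuronal adhesion gene, at chr6:46886298-46886808, 74249 bp from any domain of the other 3 culture lists. One of score 276 lay between genes near Gm43730. The list of 10 was completed by domains near *Fbxw7*, a subunit of a ubiquitin ligase (264), in introns of *Serpina5* (264) and *C2cd5* (262), and inside *Chrna4* (257). The midpoint of the one inside *Chrna4* lay in an annotated exon. The widest members were of low score: 4217 bp in an intron of *Akap9* (score 35) and 4205 bp in an intron of *Tm9sf2* (score 37). None of these 12 domains overlapped an H3K27ac peak of skin.

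WT-only domains were distal. In all, 12071 of 13197 (91.5%, 95% CI 91.0 to 91.9) lay over 2500 bp from the nearest annotated start site and 177 (1.34%) contained one. Among the other WT SOX9 domains 74.1% (73.9 to 74.4) were distal and 8.38% contained a start site. Private domains of the other lists were distal nearly as often, 90.6% of ΔTA-only, 88.8% of ΔHMG-only and 89.4% of no-DOX-only domains. The median distance of members was 21143 bp, close to the 21048 bp of 27252 positions laid on a grid of 100 kb over the genome, and longer than the 9869 bp of other WT SOX9 domains. Of the grid positions 89.7% (89.3 to 90.1) were distal. By their midpoints 51.8% of members lay in introns, 44.1% between genes and 4.08% in exons.

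The members were spread over the genome and also came in runs. A member was found in 2264 of 2737 bins of 1 Mb (82.7%). The distance to the next member had a median of 33350 bp and 3302 of 13197 had another within 10000 bp, against 51464 bp and 1762 of 10721 for ΔTA-only domains. On the autosomes the share of WT SOX9 domains that were WT-only ran from 7.81% (chromosome 11) to 14.7% (chromosome 18), and on X it was 19.3% (520 of 2693). Y, with 8 WT SOX9 domains, had no member. Apart from Y, which had at most 11 domains in any list, X also had the highest share of private domains in the other lists (12.9% for ΔTA-SOX9, 6.31% for ΔHMG-SOX9 and 5.85% without DOX).

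The densest megabase, chr18:16000001-17000000, held 34 members among 70 WT SOX9 domains, with 9 ΔTA-only domains beside them. Its sole protein-coding gene is *Cdh2*, which encodes N-cadherin of mesenchymal and neural cells. Next came 33 members in chr6:33000001-34000000, most of them in *Exoc4*, and 29 in chr4:99000001-100000000, which contains *Foxd3*, a neural crest regulator. That window had 1 ΔTA-only, 1 ΔHMG-only and 1 no-DOX-only domain. The 22 bins with over 20 members held 3.95% of all members, so that most members lay outside such runs.

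H3K27ac of skin was not used by the rule, and few members carried it. An H3K27ac peak overlapped 9 members at D0 (0.0682%), 13 at W1 (0.0985%), 4 at W2 (0.0303%, 95% CI 0.00826 to 0.0776), 5 at W6 (0.0379%) and 92 at W12 (0.697%, 0.562 to 0.854). Over all WT SOX9 domains the shares were 14.9%, 16.2%, 16.4%, 16.9% and 13.2%. ΔTA-only domains had counts of the same kind, with 6 of 10721 at W2 (0.0560%) and 65 at W12 (0.606%). The difference of members from ΔTA-only domains at W12 was 0.09 points (Newcombe 95% interval -0.12 to 0.29), so that no difference could be told at these numbers. The rule removes sites with H3K4me1 in skin, and with the culture lists alone the W2 share was 4.69%. Of the 112 members with a peak at any time, 103 had none at D0, as did 71 of 78 such ΔTA-only domains.

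The central 300 bases of members held the SOX pattern more often than those of any other set. ACAATG, searched on both strands, was present in 3496 of 13197 windows (26.5%, 95% CI 25.7 to 27.3), against 15.3% of ΔTA-only, 15.6% of ΔHMG-only, 13.3% of no-DOX-only and 16.3% of other WT SOX9 windows. Over all WT SOX9 domains the share was 17.5%, and over the windows of the genome grid it was 18.2%. The difference from ΔTA-only domains was 11.19 points (Newcombe 95% interval 10.18 to 12.21) and that from ΔHMG-only domains 10.86 points (9.50 to 12.17). The same letters in reversed order, which keep the base composition, were in 11.8% of members and between 9.65% and 10.4% of the private domains of the other lists. These shares describe letters and not binding. Nearest to members were the 10742 WT SOX9 domains that were private in culture and present in skin, with a share of 24.0%. The difference of members from these was 2.52 points (1.41 to 3.62).

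Related patterns moved with it. The longer SOX pattern AACAATGG was in 3.02% of members (over all WT SOX9 domains 1.65%, genome grid 1.60%). It was in 2.90% of WT SOX9 domains private in culture and present in skin, from which members differed by 0.13 points (-0.31 to 0.56). AACAAT, which shares ACAAT with the SOX pattern, was in 25.4% of members (over all WT SOX9 domains 16.4%, grid 21.1%). ACAAAG, a pattern of LEF/TCF factors and some SOX factors that shares the ACAA core, was in 35.9% of members (27.1%, grid 25.9%) and in 23.6% of ΔTA-only windows. For these patterns the reversed letters rose too. Reversed ACAAAG was in 27.9% of members and 24.1% of ΔTA-only windows. Reversed AACAAT, which itself holds ACAA, was in 18.7% and 12.7%, where AACAAT was in 25.4% and 14.1%. ACAATG or ACAAAG was in 52.6% of members and 35.3% of ΔTA-only domains. Members held 2 or more copies of ACAATG in 4.44% of windows, against 1.59% for ΔTA-only, and as many as 10 in one window.

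The pattern of AP1, the FOS and JUN factors that drive many enhancers of epithelia, went the opposite way. Its letters, TGANTCA, were in 1546 members (11.7%, 95% CI 11.2 to 12.3), in 25.2% of ΔTA-only, 16.2% of ΔHMG-only and 15.6% of no-DOX-only windows, in 15.6% over all WT SOX9 domains and in 8.87% of the genome grid. The difference of members from ΔTA-only domains was -13.47 points (-14.46 to -12.48). The pattern was rarer still, at 10.3% (9.76 to 10.9), in WT SOX9 domains that were private in culture and present in skin, and the difference of members from these was 1.38 points (0.58 to 2.17). The RUNX pattern TGTGGT was in 22.2% of members, 22.8% of ΔTA-only domains and 19.7% of the grid, and the difference from ΔTA-only domains was -0.64 points (-1.70 to 0.43).

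No other pattern searched differed as much between members and ΔTA-only domains. AGATAA of GATA factors was in 19.5% of members, 16.5% of ΔTA-only domains and 19.6% of the grid. GGAATG of TEAD factors was in 19.9%, 21.1% and 15.8% of these sets, and CNCACCC of KLF factors in 17.9%, 20.1% and 14.9%. The KLF pattern was in 24.2% of ΔHMG-only and 24.0% of no-DOX-only windows, and members differed from these by -6.32 points (-7.79 to -4.89) and -6.11 points (-7.78 to -4.49), more than they did for AP1 (-4.51 and -3.90 points). The remaining patterns were CAGCTG (E-box), TGTTTAC (forkhead), TAATTA (LHX), GGGNNTTCC (NF-kB), CCGGAAG (ETS), TGACGTCA (CRE), CATGNNNNNNCATG (p63) and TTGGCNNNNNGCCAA (NFI). Over all 11 of these patterns members and ΔTA-only domains differed by at most 2.98 points, the value of GATA.

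**Figure D2:**
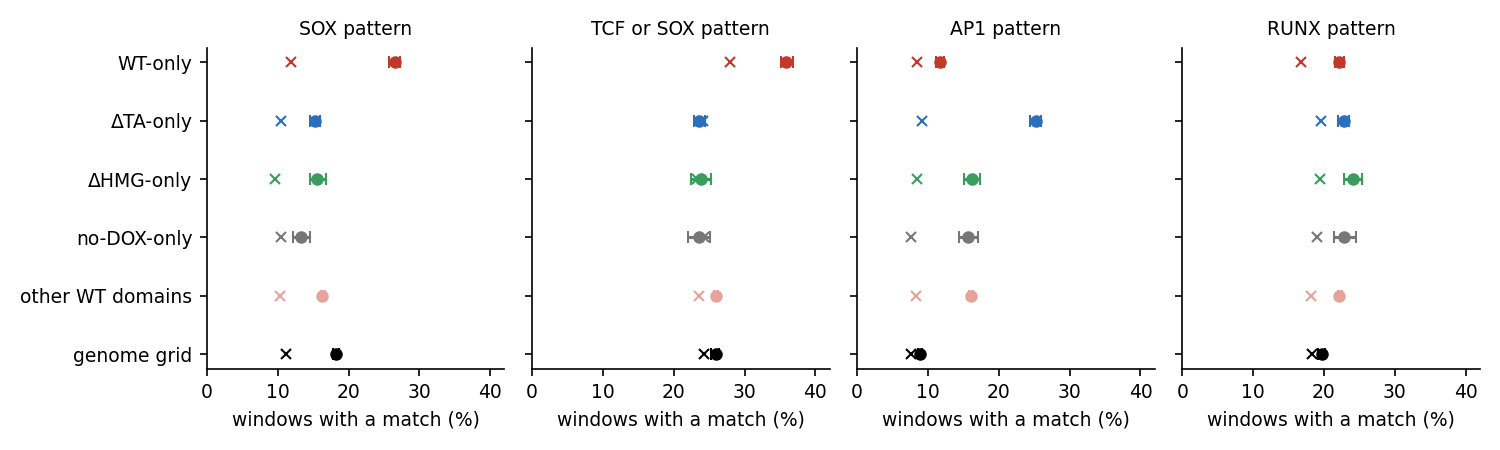
Share of central 300-bp windows with a match, in percent, for 4 patterns and 6 sets of windows; points with bars give exact 95% intervals and crosses give the same letters reversed. WT-only windows lie highest for both SOX patterns and, at 11.7%, below the other 4 sets of domains plotted for AP1.

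The SOX pattern did not follow the strength of the domain. Members in the score bands 10 to 19, 20 to 29, 30 to 49, 50 to 99 and 100 to 353 held ACAATG in 25.7%, 26.3%, 26.1%, 27.8% and 26.4% of windows. In ΔTA-only domains the share was between 13.4% and 18.2% over the same bands, the last of which had 88 domains. Among the 100 members of highest score 25 held the pattern.

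Base composition differed between the sets, so windows were also compared within bands of GC content. Members had a median GC content of 43.3%, ΔTA-only domains 46.0% and the genome grid 41.3%. At a GC content of 30 to 40% the SOX pattern was in 32.7% of members, 20.9% of ΔTA-only windows and 21.9% of the grid. At 50 to 60% it was in 16.4%, 10.4% and 10.5%. The order held in each of the 4 bands, and AP1 was lower in members than in ΔTA-only domains in each. WT SOX9 domains that were private in culture and present in skin were nearer to members. From low to high GC they held the SOX pattern in 29.9%, 26.0%, 23.5% and 16.9% of windows. Members held it in 32.7%, 27.9%, 23.8% and 16.4%.

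SOX matches were placed towards the middle of members. Within 100 bp of the midpoint there were 1.08 SOX matches per kb, against 0.713 per kb at 1000 to 1500 bp, a ratio of 1.52. In ΔTA-only domains the ratio was 0.879 (0.564 against 0.641 per kb). The AP1 pattern peaked at the midpoint of ΔTA-only domains (3.42 times its flank) and rose less in members (1.40 times). Over whole domains members held 0.985 SOX matches per kb, ΔTA-only domains 0.595, ΔHMG-only domains 0.560 and no-DOX-only domains 0.507.

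**Figure D3:**
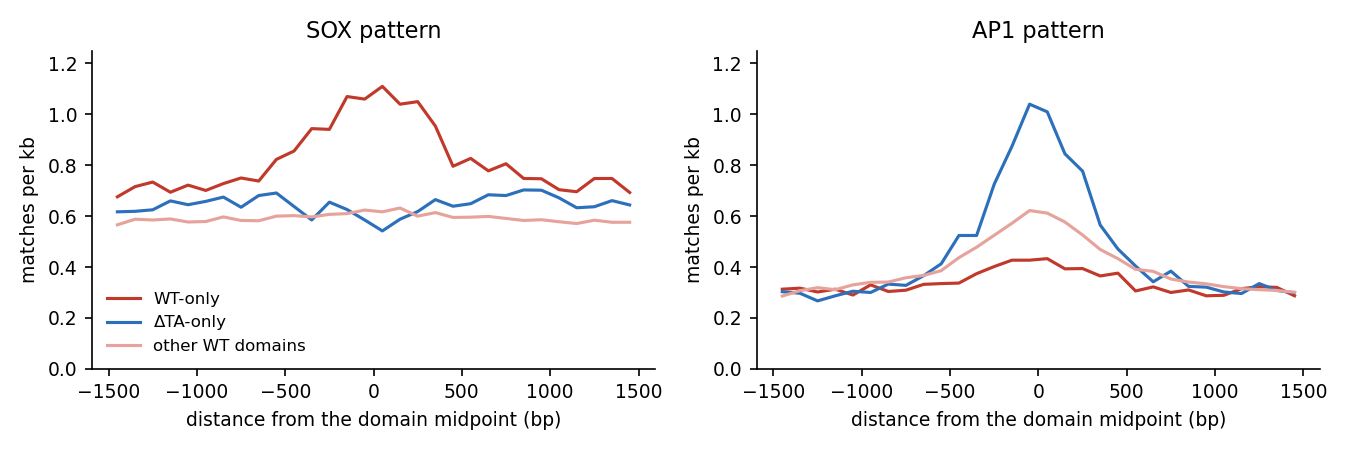
Matches per kb of the SOX pattern (left) and of the AP1 pattern (right) against the distance from the domain midpoint in bp, in steps of 100 bp. The WT-only line has a maximum for SOX at the centre (1.08 per kb within 100 bp) and the ΔTA-only line one for AP1 (1.02 per kb).

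An inventory of every word of 6 letters, made without reference to any factor, put a word that contains ACAAT first against each of the 5 other sets. Of the 1713 words present in at least 2% of windows, AACAAT had the highest ratio of members to ΔTA-only domains (1.80), followed by ACAATA (1.78) and by ACAATG itself (1.73). The lowest ratio (0.567) was that of GACTCA, which is part of the AP1 pattern. Against the genome grid ACAATG ranked first (1.45), and against no-DOX-only domains it also did (1.99). Its rank was 3 against other WT SOX9 domains (1.62) and 7 against ΔHMG-only domains (1.69), with ACAATA first in both (1.70 and 1.91). The lowest ratios against the no-DOX-only, ΔHMG-only and other WT SOX9 domains were those of GC-rich words and not of AP1 letters.

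The spacing of facing cores separated members further from the private domains of the other lists. In a scan chosen after seeing the data, the core ACAA was paired with its reverse complement TTGT downstream, at 0 to 20 bases between them. Among members 2.19% of windows had a pair at 7 bases, 2.19% at 8 bases and 1.53% at 9 bases, while the 14 spacers more than 2 bases away from these gave between 0.493% and 1.07%. Any spacer of 7 to 9 bases was found in 768 members (5.82%, 95% CI 5.43 to 6.23), in 1.52% of ΔTA-only, 1.67% of ΔHMG-only and 1.37% of no-DOX-only domains, in 2.63% of other WT SOX9 domains and in 2.04% of the genome grid. The difference from ΔTA-only domains was 4.30 points (3.84 to 4.76). WT SOX9 domains that were private in culture and present in skin had a share of 6.11%, which did not differ from members beyond counting error (-0.29 points, -0.90 to 0.31).

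**Figure D4:**
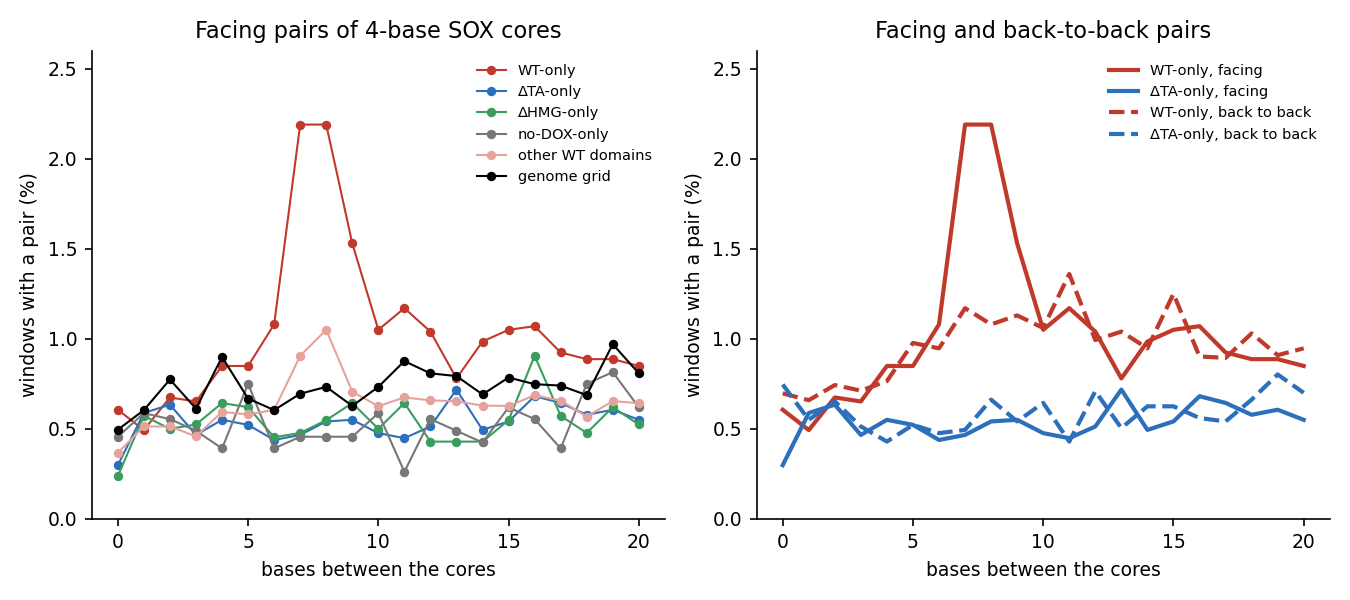
Share of central 300-bp windows, in percent, with a pair of 4-base SOX cores against the number of bases between the cores: left, facing pairs in 6 sets of windows; right, facing (solid) and back-to-back (dashed) pairs in WT-only and ΔTA-only domains. The facing line of WT-only domains rises to 2.19% at 7 and 8 bases, and its back-to-back line shows no such rise (1.17% and 1.08%).

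Of the arrangements scanned, the facing one had a peak at these spacers. It was not particular to members. Other WT SOX9 domains had 0.905% at 7 and 1.05% at 8 bases, against 0.367% to 0.686% at the 14 distant spacers. Those private in culture and present in skin had 1.92% and 2.75%. Cores placed back to back at 7 and 8 bases were in 1.17% and 1.08% of members, within the range of their other spacers. Cores in the same direction were more frequent than facing ones at every spacer, in members (3.12% to 5.23%) as in ΔTA-only domains (2.06% to 4.32%) and the grid (2.87% to 4.66%), and at 7, 8 and 9 bases members had 3.43%, 4.49% and 3.17%. A same-direction pair was searched in both of its strand forms. A facing or back-to-back pair reads the same on both strands, so these shares are not on an equal basis. With ACAAT facing ATTGT across 5 to 7 bases, which is the same placement of the cores, there were 100 members (0.758%, 95% CI 0.617 to 0.921), against 5 ΔTA-only domains (0.0466%), 1 ΔHMG-only domain, 1 no-DOX-only domain and 0.132% of the grid. The stretches printed above are of this kind, which was also in 0.183% of other WT SOX9 domains. In those private in culture and present in skin the share was 0.633%. The same 5-letter sites in the same direction, again searched in both strand forms, had a higher single value, in 57 members (0.432%) at 2 bases against 0.0839% of ΔTA-only domains and 0.0982% of the grid, while the highest facing spacer, 5 bases, had 44 members (0.333%). AACAAT facing ATTGTT across 5 bases, which places the cores 7 bases apart, was found in 5 members. The 768 members with a pair had a median score of 37.0 and a width of 648 bp, and those without one 33.0 and 582 bp.

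Genes were counted with 10 kb added at either end of the gene body. Of 21938 protein-coding genes 4912 (22.4%) had a WT-only domain there, and 4617 (21%) had a ΔTA-only, 12.8% a ΔHMG-only and 7.85% a no-DOX-only domain. Members were concentrated more: 55 genes had 10 or more of them, against 12 genes with as many ΔTA-only domains. The leading genes were long. *Exoc4*, a subunit of the exocyst that tethers secretory vesicles, had 31 WT-only domains of its 90 with WT SOX9, and 3 ΔTA-only domains. *Dlg2*, a synaptic scaffold gene, had 27 of 76 and 15 ΔTA-only domains. *Prkg1*, the cGMP-dependent kinase, had 26 of 52 and 6 ΔTA-only domains, and its members included a domain of score 249 at chr19:31214591-31215214.

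In the next leading genes members again made up a large part of the domains. Their ΔTA-only domains numbered between 0 (*Pip5k1b*) and 7 (*Thsd7b*). *Pde4d*, a cAMP phosphodiesterase, had 24 WT-only of 95 domains, *Ptprk*, a receptor phosphatase of cell contacts, 23 of 54, and *Ntm*, a neuronal adhesion gene, 22 of 65. *Pip5k1b*, a lipid kinase gene, had 21 of 37 (56.8%) and no ΔTA-only domain, with 8 domains of any kind in cells without DOX. *Thsd7b* had 19 of 45, *Ccser1* 19 of 57 and *Ptprt*, another receptor phosphatase, 17 of 54. Their top-scored members were all intronic.

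For 13 gene lists, chosen with earlier results of these data known, the share of their WT SOX9 domains that were WT-only was set against 8.39% (8819 of 105152) over all protein-coding genes. The lists above it were axon guidance and neuronal adhesion at 18.3% (104 of 567), a list of long genes with a median of 297 kb in which 26 of 39 genes had a WT-only and 28 a ΔTA-only domain, cartilage targets of SOX9 at 15.1% (28 of 186), neural crest and glia at 14.5% (18 of 124), mesenchymal and EMT genes at 14.2% (32 of 225) and the SOX family with 15 of 125 (12%). Single long genes carried part of these shares. Without the gene of each list that held most WT-only domains they were 17.3% (axon guidance), 11.9% (cartilage, without *Col11a1*), 9.52% (neural crest, without *Mitf*), 12.4% (mesenchymal, without *Cdh2*) and 9.47% (SOX family, without *Sox5*), and without both *Sox5* and *Sox6*, which the cartilage list also holds, the SOX family was at 6.90% (4 of 58). The hair follicle list had 1.59% (5 of 314), epidermal identity 2.53%, RUNX and AP1 factors 0.885%, Hedgehog 6.02%, Wnt 4.21%, TGF-beta and BMP 5.61%, Notch 5.06% and the matrix and adhesion genes of basal keratinocytes 4.24%. The rule removes sites with H3K4me1 in skin, so lists of genes marked in skin can have low shares by the rule alone, which was not tested. Members per Mb of gene span gave another order, with 5.83 over all protein-coding genes. Axon guidance had 5.89, cartilage 9.48, neural crest 11.9, mesenchymal 10.1 and the SOX family 7.31. Notch (6.23) and TGF-beta and BMP (6.11) were also above it, and the remaining lists below (hair follicle 1.80).

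**Figure D5:**
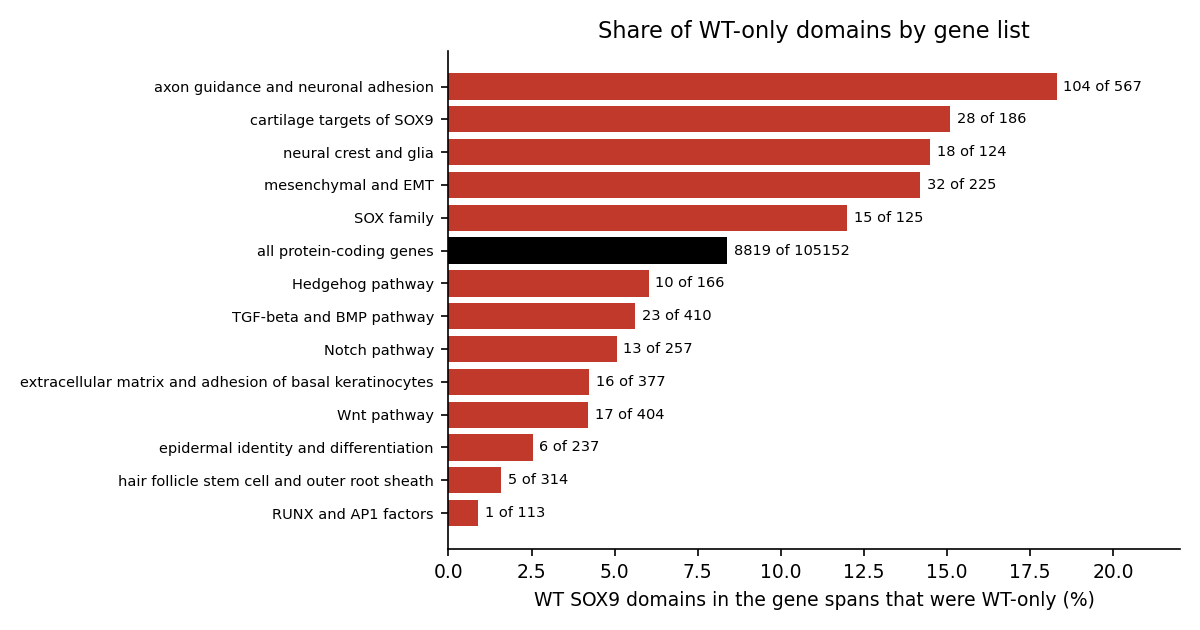
Share in percent of the WT SOX9 domains in the spans of each gene list (10 kb added at either end) that were WT-only, with the counts beside each bar; the black bar is all protein-coding genes (8.39%). The hair follicle list lies at 1.59% and the cartilage list at 15.1%, where the rule had removed sites with H3K4me1 in skin.

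Cartilage genes that SOX9 controls in chondrocytes had members at 11 of 24 genes (45.8%, 95% CI 25.6 to 67.2, against 22.4% of all protein-coding genes) and a ΔTA-only domain at 3 (12.5%, against 21% of all). *Col11a1*, a fibrillar cartilage collagen, had 7 WT-only of 9 WT SOX9 domains, 1 domain without DOX and no ΔTA-only domain. Its top-scored member (69) was intronic at chr3:114088696-114088979. *Col9a1*, another cartilage collagen, had 3 of 8 and none without DOX. The SOX9 partner genes *Sox6* and *Sox5* had 5 of 37 and 6 of 30, and *Sox5* also had 6 ΔTA-only domains. *Matn1*, *Col10a1*, *Cnmd*, *Acan*, *Wwp2*, *Papss2* and *Col27a1* had 1 each, with scores from 11 (*Col27a1*) to 47 (*Wwp2*).

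Hair follicle genes had members at 5 of 30 genes (16.7%, 5.64 to 34.7) and ΔTA-only domains at 7 (23.3%), both near the shares over all protein-coding genes. *Lgr5*, a stem cell receptor for R-spondins, had 1 of 13 and 1 ΔTA-only domain (score of the member 114, 5.84-fold, intronic at chr10:115518415-115519264). *Bmp6*, a ligand of BMP signalling, had 1 of 9 and 2 ΔTA-only domains, *Ptch1*, the Hedgehog receptor, 1 of 7, the BMP inhibitor *Grem1* 1 of 3 and *Tcf7l2* 1 of 22. In the Hedgehog list 6 of 19 genes had a member (31.6%, 12.6 to 56.6, an interval that includes the 22.4% of all genes) and 5 a ΔTA-only domain. *Hhat*, which acylates the ligands, had 3 of 16 and 4 ΔTA-only domains, *Disp1*, which releases them, 3 of 18, and *Evc2*, the co-receptor *Cdon* and the effector *Gli3* 1 each. Of the SOX family *Sox30* had 2, and *Sox10* and *Sox13* 1 each, all of low score (at most 21). *Runx1* had no WT-only domain among 29 and 2 ΔTA-only domains, and *Vim* had none among 2.

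Outside these 4 lists a few genes are named after their values were seen. *Mitf*, the regulator of melanocytes, had 10 WT-only of 40 domains and no ΔTA-only domain. Genes of the axon guidance list went both ways. *Cntn4* had 7 WT-only of 10 domains and 1 ΔTA-only domain, and the netrin receptor gene *Unc5c* had 8 of 17 and none. *Dscam* had 2 WT-only and 8 ΔTA-only domains, *Ncam1* 2 and 5, *Plxna4* 1 and 4, *Slit3* 3 and 4, and *Slit1* 1 and 3. *Cdh2* had 8 of 31 and 4 ΔTA-only domains, and *Zeb2*, a repressor of epithelial genes, 6 of 14 and 2. In the RUNX and AP1 list the only member was an intronic domain of *Cbfb*, the RUNX partner gene.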

How the data were processed

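By the study's methods the authors assigned reads to samples by barcode, trimmed them (Skewer), aligned them to GRCm38/mm10 (Bowtie2 2.2.9), removed duplicates (Picard) and merged replicates (SAMtools 1.9). Tool versions are those of the submitters' processing notes. For skin H3K4me1 the deposited epic2 domains carry a p-value. For culture and H3K27ac the deposited lists hold a score, a fold enrichment (ratio to background) and a −log10 q (MACS2 2.1.1 layout). How the culture lists were called is unclear, since the study names epic2 for H3K4me1. Only intervals on 21 chromosomes were used.

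Overlap meant 1 bp or more. Distances were taken to 77161 start sites of 55413 GENCODE genes, and distal meant over 2500 bp. Motifs were matched on both strands in central windows of 300 bp, from the GRCm38 sequence. The genome grid took a window every 100 kb. Shares carry Clopper-Pearson 95% intervals, differences Newcombe intervals and medians order-statistic intervals. The steps were tested on simulated data and run in Python 3.11.15 (NumPy 2.4.6, pandas 2.3.3, SciPy 1.17.1, pysam 0.24.0).

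The members, gene lists and motifs were chosen with earlier results of these data known. Named were the 10 top-scored and 2 widest members, the 10 genes with most members, genes of the hair follicle, cartilage, Hedgehog and SOX lists with a member, *Vim* and *Runx1*. Sequence windows were those of the 3 top-scored members with the SOX pattern and 2 with a facing pair, off 1 chromosome. A window that touched a UTR was skipped for the next. The pair scan was chosen after seeing the data. Znf750, an older name on the epidermal list, was unmatched. Alternatives changed the overlap, the score or q limit, list length, joining, chromosomes, skin lists, distal limit, window and repeats.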

Additional observations from a re-analysis of the deposited data

How the results depend on the processing

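No paired analysis was possible because each culture list pools its digests and each skin list its replicates, and for the same reason leaving out a replicate was not possible. Depth behind the culture lists is unknown, and a domain absent from another list was not told apart from one under its calling threshold. Beyond the choice of domains, windows or limits that a setting makes, the cause of a change was not tested.

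The rule was also run on the full lists, with private domains then kept only above the median score of their own list. Members numbered 4190, the ratio to ΔTA-only domains was 2.41, median width 714 bp, fold 4.63, the distal share 92.1%, the SOX share 27.3% and the facing pair share 6.68%. With the culture lists alone the values were 23939 domains, 630 bp, 3.41-fold, 88.3% distal, 25.4% SOX, 11.1% AP1 and 4.69% with a W2 H3K27ac peak. Width and fold were 610 bp and 3.51 with an overlap of 50% of the shorter interval, 624 bp and 3.70 at a q of at most 0.01, and 608 bp and 3.63 with lists of equal length. When a domain within 1000 bp counted as shared, fold was 3.58 and 92.0% were distal. Distal limits of 1000 bp and 10000 bp gave 96.1% and 70.7%. In the central 600 bp SOX was 45.2% and AP1 21.7%, over whole domains 46.6% and 24.3%, outside repeats SOX was 27.5%, and with AACAAT in place of ACAATG 25.4%. Over 11 settings the difference of members from ΔTA-only domains kept its sign, at 10.6 to 20.4 points for SOX, -20.5 to -11.9 for AP1 and 4.12 to 9.37 for the facing pair, an outcome whose alternatives were chosen after seeing the data.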
